A study of Homo sapiens with 18 samples.

Results

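The 6 genes described here encode the cytoplasmic actins β (ACTB) and γ (ACTG1) and 4 small proteins that act on actin or on its motor: cofilin 1 (CFL1), profilin 1 (PFN1), the essential myosin light chain MYL6 and thymosin β10 (TMSB10). They were chosen by name, out of 63568 gene entries in the deposited table of transcript abundance, to set the 2 actins beside the 4 small actin-binding mRNAs (MYL6 is counted with these, although its protein binds the myosin heavy chain). The RNA came from HEK293, an established line of human embryonic kidney cells grown in DMEM with fetal bovine serum, and all 18 libraries come from this 1 line. Total RNA gave 3 libraries, each freed of ribosomal RNA by another method: poly(A) selection for replicate 1, RNase H depletion for replicate 2 and Ribo-Zero depletion for replicate 3. The method cannot be told apart from the replicate in total RNA. Labelled RNA was collected 7.5, 15, 30, 45 and 60 min after 500 µM 4-thiouridine, a uridine analogue that enters RNA made after its addition, and was biotinylated and purified on streptavidin, with 3 libraries at each time. The labels do not say whether replicates came from separate cultures, and the p-values therefore cover the spread among these libraries alone, which may be technical.

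Actin monomers assemble into filaments that carry cell shape, migration and division, and the pool of monomers is turned over all the time. Cofilin severs and takes apart old filaments, profilin helps monomers to exchange their nucleotide and brings them to growing ends, β-thymosins hold monomers in reserve, and MYL6 stabilises the lever arm of non-muscle and smooth muscle myosin II. Actin genes are known targets of serum response factor (SRF), which binds CArG boxes and is switched on by a coactivator that senses free actin monomers. Labelled RNA is meant to hold molecules made during the labelling, whereas total RNA also holds those made earlier. An mRNA with a slow turnover therefore weighs more in total RNA. How much unlabelled RNA came through the purification was not measured here. Its part in the changes over labelling time was not tested.

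The 2 actin mRNAs are close enough in sequence that short reads can be shared between them, which is why their coding sequences are shown first. Over 1128 coding bases in GENCODE release 29 (GRCh38) they were 91.2% identical, with 99 differing bases. In the first 60 coding bases, on the minus strand at chr7:5529598-5529657 for ACTB and chr17:81512295-81512354 for ACTG1, 10 bases differ and are printed in capitals.
ACTB: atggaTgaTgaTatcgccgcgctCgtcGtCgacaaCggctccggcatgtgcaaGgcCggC
ACTG1: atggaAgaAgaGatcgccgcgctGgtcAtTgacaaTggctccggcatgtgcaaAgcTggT
The longest run shared by both coding sequences had 59 bases, from coding base 832 to 890, and lies at chr7:5528098-5528156 in ACTB and chr17:81511021-81511079 in ACTG1.
ACTB and ACTG1: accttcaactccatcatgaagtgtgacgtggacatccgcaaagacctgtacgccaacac

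Promoters were read from RefSeq (GRCh38.p14) as the 250 bases before each gene's start, and 5 of the 6 genes matched the table, CFL1, PFN1, MYL6, TMSB10 and ACTG1. Those of ACTG1 (chr17:81512800-81513049, minus strand) and TMSB10 (chr2:84905406-84905655, plus strand) are shown because these 2 mRNAs stood at opposite ends of the time course described below. Capitals mark matches on either strand to the CArG box (CC, 6 bases of A or T, GG), to CCAAT and to GGGCGG, the core of a GC box; matches of GGGCGG can overlap.
ACTG1 promoter: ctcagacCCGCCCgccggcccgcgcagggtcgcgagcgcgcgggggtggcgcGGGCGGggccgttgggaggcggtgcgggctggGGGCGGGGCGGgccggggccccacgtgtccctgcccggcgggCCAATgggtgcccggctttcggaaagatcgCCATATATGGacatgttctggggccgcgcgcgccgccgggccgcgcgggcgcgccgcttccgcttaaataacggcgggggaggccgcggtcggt
TMSB10 promoter: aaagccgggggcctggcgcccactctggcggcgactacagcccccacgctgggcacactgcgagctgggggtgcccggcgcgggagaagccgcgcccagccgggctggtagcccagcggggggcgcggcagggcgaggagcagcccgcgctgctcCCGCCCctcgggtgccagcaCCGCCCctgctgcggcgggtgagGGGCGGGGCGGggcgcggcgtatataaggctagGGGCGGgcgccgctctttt
The CArG box was found once in the ACTG1 window, 94 bases before the start, in none of the other 4 windows, and in 1.16% of 35116 promoter windows of the same length. GGGCGG was found 5 times in TMSB10, 4 times in ACTG1 and 2 times each in CFL1, MYL6 and PFN1, and in 42.6% of all windows. CCAAT was found 2 times in CFL1 and once each in MYL6 and ACTG1, in 32.0% of all windows. TATAAA, found in 10.7% of all windows, was in none of the 5. Only this exact string was counted, and the TMSB10 window holds the similar tatataag near its end. A match describes these letters and is not evidence of binding.

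The values are the authors' TPM, transcripts per 1000000 transcripts, estimated for each gene as mature (spliced) and primary (unspliced) RNA. They are shares of a library, scaled by transcript length, and carry no read depth, so the depth is unknown. In bulk RNA, fewer cells that make an mRNA and less of it per cell cannot be told apart. The number of genes with mature TPM above 0 was 22906 to 24470 in total RNA, 18318 to 20407 in 14 labelled libraries and 15159 in 45 min replicate 2. The 6 mRNAs together took 0.249% to 0.524% of all TPM in total RNA and 0.135% to 0.298% in labelled libraries. Of 14 markers of leukocytes, muscle, fibroblasts, erythroid cells and liver, CD3E and HBB were at 0 throughout, the other erythroid marker HBA1 had 4.64 to 18.8 TPM in total RNA and 0 to 17.4 TPM in labelled libraries, the fibroblast marker COL1A1 reached 5.78 TPM, and the summed level of all 14 was 6.20 to 24.9 TPM in total RNA and 2.69 to 18.2 TPM in labelled libraries. The muscle actins ACTC1 and ACTG2 reached at most 0.29 and 0.76 TPM, and ACTA1 3.58 TPM. Of the markers HEK293 is known for, VIM had 547 to 1043 TPM in total RNA and 228 to 371 TPM in labelled RNA, PAX2 reached 10.0 TPM and NEFM 2.40 TPM, and NEFL was not found by symbol.

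The ACTG1 values carry a particular limit. A second entry without a symbol, ENSG00000267807.2, held the same values as ACTG1 (ENSG00000184009.5) in all 36 columns, as 900 of 19102 entries above 0 in at least 9 libraries did with some other entry. The sources used here do not say whether reads of ACTG1 were divided between both entries. With both entries summed its level would be 1374, 1238 and 1037 TPM at 60 min, and 1230, 850.02 and 1070.1 TPM at 7.5 min. These values are above ACTB in each library of both times. Summing left every call on the 6 genes as it was. Pseudogenes can also take reads: of 55 pseudogenes of the 6 genes, 16 were at 0 in every library and 7 had a mean of at least 1 TPM. These were ACTG1P3 (6.68 TPM), CFL1P5 (6.41), ACTG1P24 (5.66), ACTG1P14 (3.89), CFL1P1 (3.50), ACTG1P17 (3.45) and ACTG1P20 (1.92), means over all 18 libraries. The 55 means added up to 37.2 TPM, small beside the levels of their parent genes.

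In labelled RNA the mRNAs of TMSB10, MYL6 and CFL1 fell between 7.5 and 60 min, and those of the actins did not pass the test for a change. ACTB had 1039.8, 681 and 693 TPM at 7.5 min, 1059, 764 and 599.7 at 15 min, 853, 632 and 552 at 30 min, 822, 585 and 609 at 45 min, and 746, 633 and 559 at 60 min. Replicate 1 was the highest of the 3 at all 5 times, and the ranges of the first and last time overlapped. ACTG1 had 615, 425 and 535 TPM at 7.5 min, 623, 489 and 449 at 15 min, 665, 595 and 423 at 30 min, 721, 606 and 508 at 45 min, and 687, 619 and 518 at 60 min. Here too replicate 1 was the highest at all 5 times and the first and last time overlapped. ACTB averaged 646 ± 94.4 TPM in the 60 min libraries, against 805 ± 204 TPM in the 7.5 min libraries, and ACTG1 608 ± 84.8 TPM, against 525 ± 95.4 TPM (SD over 3 libraries).

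**Figure D1:**
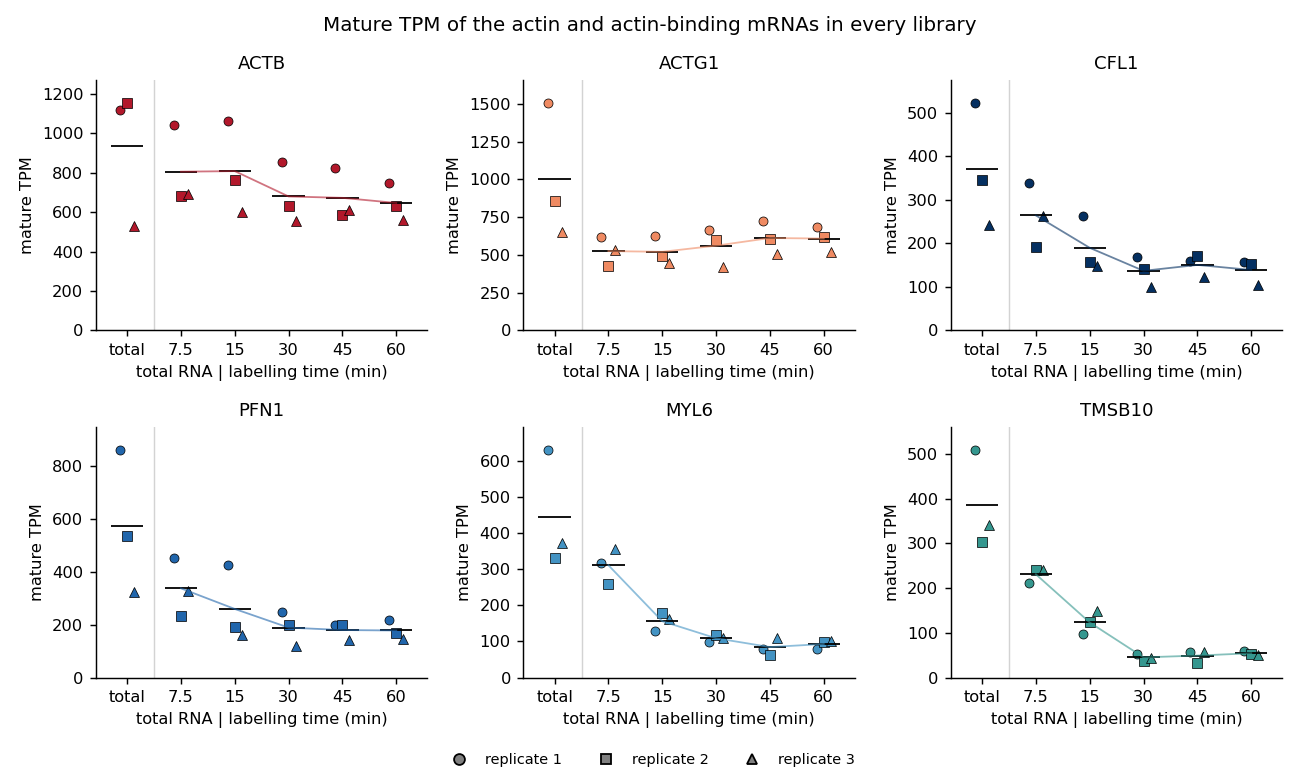
Mature TPM of each of the 6 mRNAs (1 panel each, vertical axis from 0) in total RNA and at 5 labelling times in minutes (horizontal axis); points are libraries, horizontal bars are means of 3 and the line joins the labelled means. The ranges of both actins at 60 and 7.5 min overlap, whereas TMSB10 averages 54.4 TPM at 60 min and 231 TPM at 7.5 min. All 4 actin-binding mRNAs are higher in every total library than in any 60 min library. The share of all genes without such overlap was not counted, so this gap is description only.

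TMSB10, which sequesters actin monomers, lost the most weight. It had 211, 240.01 and 241 TPM at 7.5 min, 96.7, 124 and 149 at 15 min, 52.9, 38.2 and 44.4 at 30 min, 57.5, 32.4 and 57.5 at 45 min, and 59.4, 53.5 and 50.2 at 60 min. Every library from 30 min on was below every 15 min library, and those in turn were below every 7.5 min library. MYL6 had 316, 259 and 357 TPM at 7.5 min, 129, 178 and 161 at 15 min, 99.2, 118 and 109 at 30 min, 79.8, 63.7 and 109.9 at 45 min, and 79.3, 97.7 and 102 at 60 min. For both mRNAs every 60 min library was below every 7.5 min library. How many of all genes have groups without overlap was not counted, here or below, so such a gap is description only.

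CFL1 and PFN1 stood between the actins and these mRNAs. CFL1 had 339, 192 and 262 TPM at 7.5 min, 264, 158 and 147 at 15 min, 169, 142 and 100.2 at 30 min, 159, 171 and 122 at 45 min, and 158, 154 and 105 at 60 min. PFN1 had 454, 233 and 328 TPM at 7.5 min, 428, 191 and 161 at 15 min, 247, 201 and 120.2 at 30 min, 200.2, 199 and 141 at 45 min, and 218, 171 and 147 at 60 min. Their 60 min libraries also lay below all 7.5 min libraries, but the gap was narrow: the highest 60 min value of PFN1, 218 TPM, was close to its lowest 7.5 min value, 233 TPM. PFN1 was highest in replicate 1 at all 5 times and CFL1 at 4 of 5.

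The test asked which mature mRNAs differed between 60 and 7.5 min of labelling (limma on log2(TPM + 1), Benjamini-Hochberg adjustment over 16739 genes), where 4.21% of genes were called lower and 15.8% higher. Of the 6 genes, 3 were called lower. TMSB10 changed by −2.06 on the log2 scale (limma, SE 0.23, adjusted p = 3.71e-05), a level 0.239 times that at 7.5 min. MYL6 had −1.73 (SE 0.21, limma adjusted p = 6.98e-05) and CFL1 −0.91 (SE 0.28, limma adjusted p = 0.0317). PFN1 was about as far down as CFL1 but varied more and did not pass, with −0.88 (SE 0.35, limma adjusted p = 0.0959). ACTB had −0.30 (SE 0.24, limma adjusted p = 0.455), which turned to 0.061 under quantile normalization, and ACTG1 had 0.22 (SE 0.21, limma adjusted p = 0.544), which turned to −0.13 under median-ratio scaling and −0.020 with TPM over mature transcripts alone. Over all genes the log2 change had a median of 0.24, or −0.05 under median-ratio scaling. Relative to that median of 0.24, the log2 changes were −2.31 for TMSB10, −1.97 for MYL6, −1.15 for CFL1, −1.13 for PFN1, −0.54 for ACTB and −0.02 for ACTG1. In the order of all genes, from the largest fall to the largest rise, TMSB10 stood at percentile 1.06, MYL6 at 2.04, CFL1 at 8.99, PFN1 at 9.34, ACTB at 24.6 and ACTG1 at 48.8.

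With a replicate block in the fit, PFN1 also passed as lower (closing section). The calls of MYL6 and TMSB10 held under each alternative tried. That of CFL1 was lost without 7.5 min replicate 1 (limma adjusted p = 0.130) or 3 (0.0833), without 60 min replicate 2 (0.0541) or 3 (0.139), and with no filter on low values (0.0688), while PFN1 passed with median-ratio scaling (limma adjusted p = 0.0439), with TPM over mature transcripts alone (0.0373) and with only the 6 libraries compared in the fit (0.0358).

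In total RNA the 4 small mRNAs weighed more than in 60 min labelled RNA, and the actins did not pass the test. TMSB10 had 509 (poly(A)), 304 (RNase H) and 341 TPM (Ribo-Zero) in total RNA, against 59.4, 53.5 and 50.2 TPM at 60 min. MYL6 had 630.4, 332 and 373 TPM in the same order of methods, against 79.3, 97.7 and 102 TPM at 60 min. Even the lowest total library was several times the highest 60 min library for both mRNAs. PFN1 had 864, 537 and 325 TPM in total RNA, against 218, 171 and 147 TPM at 60 min. CFL1 had 524, 345 and 242 TPM in total RNA, against 158, 154 and 105 TPM at 60 min. The groups did not overlap for these 4 mRNAs, and the poly(A) library was the highest of the total libraries for each. The share of all genes without such overlap was not counted. ACTB had 1119, 1155 and 528 TPM in total RNA, against 746, 633 and 559 TPM at 60 min, so that its Ribo-Zero library lay below all 60 min libraries. ACTG1 had 1508, 857 and 649 TPM in total RNA, against 687, 619 and 518 TPM at 60 min, and its Ribo-Zero library fell within the range of the 60 min libraries.

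In that comparison (limma, 16580 genes, all 18 libraries) 5.24% of genes were called higher and 40.1% lower in total RNA, and the median log2 change was −0.84, which median-ratio scaling moved to −0.06. Of the 6 genes, 4 were called higher. TMSB10 changed by 2.77 on the log2 scale (limma, SE 0.26, adjusted p = 6.90e-07), MYL6 2.20 (SE 0.27, limma adjusted p = 5.79e-06), PFN1 1.59 (SE 0.40, limma adjusted p = 0.00347) and CFL1 1.36 (SE 0.32, limma adjusted p = 0.00237). These 4 calls held under each scaling and without any 1 of the 6 libraries compared. ACTG1 did not pass with 0.64 (SE 0.31, limma adjusted p = 0.0981), nor did ACTB with 0.46 (SE 0.33, limma adjusted p = 0.275), and quantile normalization turned them to −0.11 and −0.31. Both passed without the Ribo-Zero library (limma adjusted p = 0.0181 for ACTG1 and 0.0300 for ACTB) and with median-ratio scaling (2.04e-04 and 0.00219). Relative to the median of all genes the log2 changes were 3.60 for TMSB10, 3.03 for MYL6, 2.43 for PFN1, 2.19 for CFL1, 1.48 for ACTG1 and 1.29 for ACTB, from percentile 99.4 for TMSB10 to percentile 89.0 for ACTB. This comparison and the one over labelling time share the 60 min libraries.

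**Figure D2:**
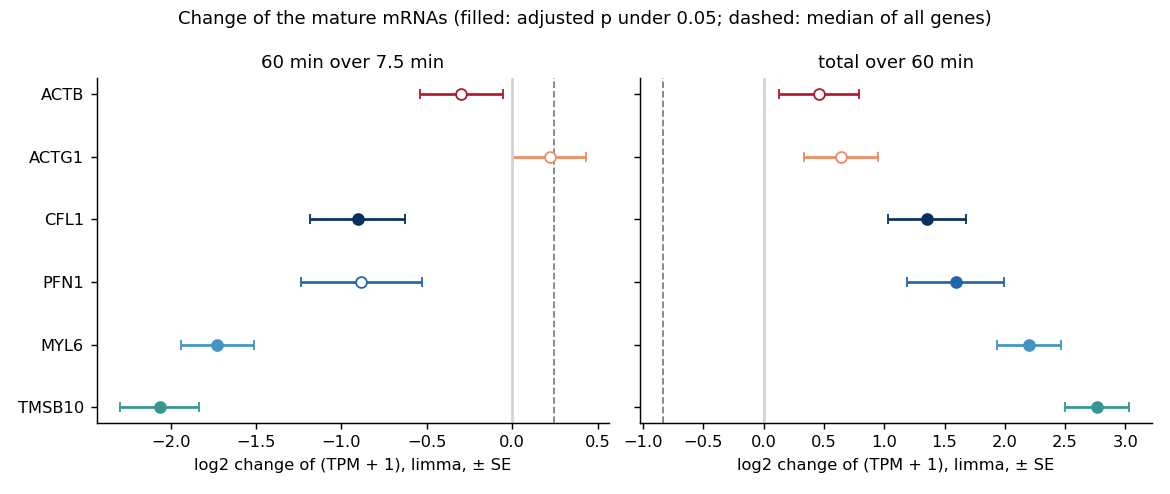
Log2 change of (TPM + 1) with its standard error (horizontal axis) for each mRNA (vertical axis), at 60 min over 7.5 min (left) and in total RNA over 60 min (right); filled points passed limma at an adjusted p of 0.05 and the dashed line is the median of all genes. TMSB10 and MYL6 lie farthest from 0 on both sides, at −2.06 and −1.73 on the left and 2.77 and 2.20 on the right, and both actins are open points.

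The contrast between the 2 kinds of mRNA can be put as 1 value per library, the mean log2 TPM of the 2 actins minus that of the 4 actin-binding mRNAs. In total RNA it was 1.07 (poly(A)), 1.43 (RNase H) and 0.89 (Ribo-Zero), below every library from 15 min on and beside those of 7.5 min. In labelled RNA it was 1.33, 1.23 and 1.05 at 7.5 min, 2.07, 1.93 and 1.75 at 15 min, 2.63, 2.53 and 2.47 at 30 min, 2.81, 2.70 and 2.44 at 45 min, and 2.67, 2.53 and 2.51 at 60 min. The libraries of 7.5, 15 and 30 min did not overlap, and those of 30, 45 and 60 min did. As ratios of geometric means, actin mRNAs stood 2.19 times above the actin-binding mRNAs in total RNA, 5.94 times at 60 min and 2.30 times at 7.5 min. With both entries of ACTG1 values summed, these ratios would all be higher. The mean log2 difference was 1.37 higher at 60 than at 7.5 min and 1.44 lower in total RNA than at 60 min (a change of −1.44). No test was made, since the genes were chosen with results known.

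**Figure D3:**
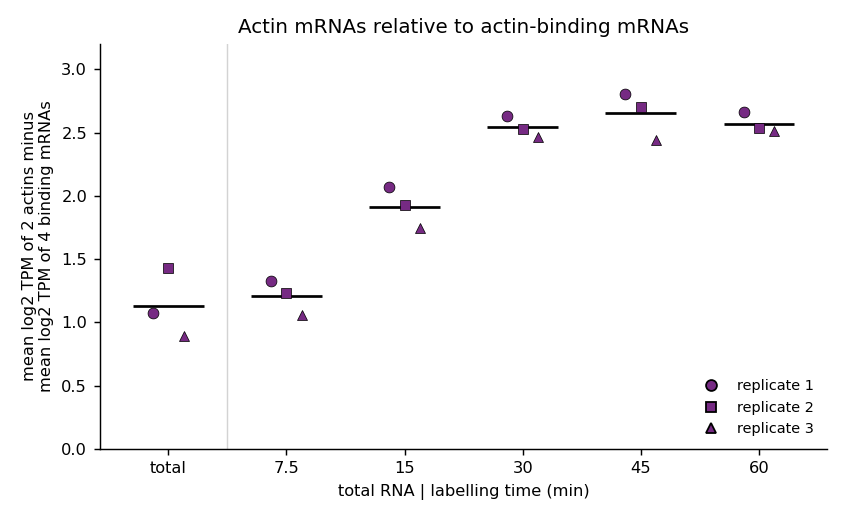
Mean log2 TPM of ACTB and ACTG1 minus mean log2 TPM of CFL1, PFN1, MYL6 and TMSB10 (vertical axis, from 0) in total RNA and at 5 labelling times in minutes; points are libraries and bars are means of 3. The mean is 1.13 in total RNA and is 1.204 at 7.5 min, 1.92 at 15 min and 2.54 at 30 min, after which it stays between 2.54 and 2.65.

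The order of the levels differed between times. At 7.5 min it was ACTB, ACTG1, PFN1, MYL6, CFL1 and TMSB10, from 805 to 231 TPM on average; ACTB lay above ACTG1 without overlap, and every other pair of neighbours overlapped. At 60 min the order was ACTB (646 TPM), ACTG1 (608), PFN1 (178), CFL1 (139), MYL6 (92.9) and TMSB10 (54.4); ACTB and ACTG1 overlapped, as did PFN1 and CFL1, and the other neighbours did not. In total RNA ACTG1 (1005 ± 448 TPM, SD, n = 3) and ACTB (934 ± 352) came first and overlapped. These orders use the ACTG1 entry alone. With the identical entry summed, ACTG1 would stand above ACTB in each library at 7.5 min, at 60 min and in total RNA. Set against the mean in total RNA, the labelled mean of TMSB10 was 60.0%, 32.0%, 11.7%, 12.8% and 14.1% over the 5 labelling times, shortest first. At 60 min this share was 20.9% for MYL6, 31.0% for PFN1, 37.6% for CFL1, 60.5% for ACTG1 and 69.2% for ACTB. These shares compare TPM and are not the part of an mRNA pool that was new.

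By TPM, the unspliced share of both actins was very small at every time. Primary ACTB was 0.53, 0.47 and 0.85 TPM at 60 min, against 2.81, 1.86 and 1.65 TPM at 7.5 min; primary ACTG1 was 2.65, 1.82 and 1.18 TPM at 60 min, against 8.97, 3.10 and 5.06 TPM at 7.5 min. The 60 min libraries of both lay below all 7.5 min libraries, and how many of all genes do so was not counted. As a percent of primary plus mature TPM, the unspliced share of ACTB was 0.0990% ± 0.0458 in the 60 min libraries and 0.260% ± 0.0192 in the 7.5 min libraries (SD over 3 libraries), against gene medians of 15.1% and 39.7% at those times. For ACTG1 it was 0.302% at 60 min and 1.03% at 7.5 min, and for CFL1 1.01% at 60 min and 0.704% at 7.5 min. The primary isoform spans the whole annotated locus, which in GENCODE release 29 is long for these 3 genes: 36638 bases for ACTB, 13877 for ACTG1 and 39005 for CFL1, against 5336 for MYL6, 3410 for PFN1 and 1051 for TMSB10. TPM divides by that length, and its part in the low values was not tested. At the single introns described below, 74.5% to 89.8% of reads at intron ends were spliced in ACTB at 7.5 min. In CFL1 this was 83.2% to 86.3%. The TPM share is thus not the part of reads that were unspliced.

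In PFN1, MYL6, TMSB10 and CFL1 the mean unspliced share was highest at 30 min. Over the 5 labelling times, shortest first, PFN1 had 7.76%, 14.8%, 21.9%, 17.4% and 13.6%. MYL6 had 5.20%, 13.2%, 15.7%, 14.3% and 12% in the same order. TMSB10 had 7.36%, 13.8%, 25.6%, 18.8% and 12.4%, with wide differences between replicates. Its primary RNA was 14.6, 5.90 and 4.04 TPM at 60 min, against 37.2, 8.58 and 9.04 TPM at 7.5 min, and replicate 1 was the highest at all 5 times. Among about as many genes at each time (13872 at 7.5 min, 13877 at 60 min), PFN1 stood at percentile 43.4 of the unspliced share at 60 min and 4.02 at 7.5 min, MYL6 at 35.5 and 2.62, and TMSB10 at 37.4 and 3.81. In total RNA the share was under 1% in every library, with 0.826%, 0.796% and 0.809% for TMSB10. All 6 loci overlap other annotated genes, among them ENO3 (opposite strand to PFN1), TRABD2A (opposite TMSB10), SNX32 and MUS81 (opposite CFL1) and MYL6B (same strand as MYL6). The design text states strand-specific sequencing; the sources used here do not say whether the estimates used strand, and reads of MYL6B can add to primary MYL6 either way.

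**Figure D4:**
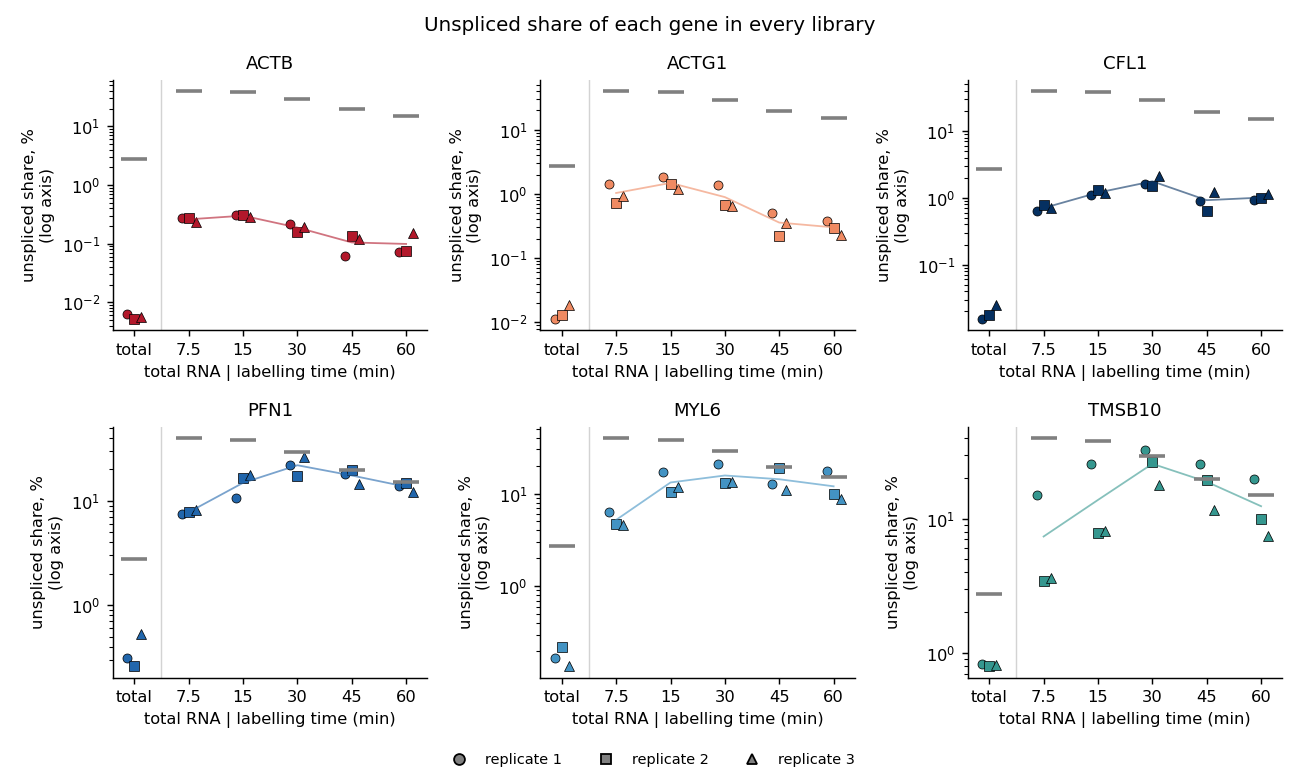
Unspliced share, primary as a percent of primary plus mature TPM (vertical log axis), of each gene in total RNA and at 5 labelling times in minutes; points are libraries, the line joins labelled means and grey bars are the median of all genes. ACTB, ACTG1 and CFL1 stay far below the gene median, while PFN1, MYL6 and TMSB10 average 21.9%, 15.7% and 25.6% at 30 min, against 7.76%, 5.20% and 7.36% at 7.5 min.

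For primary RNA at 60 against 7.5 min (limma, 14497 genes) 75% of genes were called lower and 0.635% higher. Of the 6 genes, 2 were called lower, a share below that of all genes. ACTB changed by −0.93 on the log2 scale (limma, SE 0.23, adjusted p = 0.00204) and ACTG1 by −1.15 (SE 0.42, limma adjusted p = 0.0207), beside a median of −1.15 over all genes. With median-ratio scaling the median was 0.02 and both calls were lost (limma adjusted p = 0.606 for ACTB and 0.980 for ACTG1), as did quantile normalization (0.358 and 0.876), and ACTG1 did not pass without 7.5 min replicate 1 (0.108), without 60 min replicate 3 (0.0746) or with no filter on low values (0.0551). PFN1 had 0.01 (limma adjusted p = 0.971), CFL1 −0.24 (0.266), MYL6 −0.45 (0.128) and TMSB10 −0.92 (0.177). Median-ratio scaling turned CFL1, MYL6 and TMSB10 to 0.70, 0.95 and 0.43, and PFN1 then passed at 1.45 (limma adjusted p = 0.0361). MYL6 passed as lower without 60 min replicate 1 (log2 change −0.67, limma adjusted p = 0.0334). TMSB10 passed as lower with a replicate block in the fit (closing section).

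The ratio of primary to mature TPM does not depend on the scaling of a library. It was lower at 60 than at 7.5 min for 62.8% of 13879 genes and higher for 1.09% (limma on the log2 ratio with 0.1 TPM added to each part), with a median log2 change of −1.81. Of the 6 genes, 2 were called higher: MYL6 at 1.26 (SE 0.38, limma adjusted p = 0.00990) and PFN1 at 0.90 (SE 0.27, limma adjusted p = 0.0101). TMSB10 had 1.08 (SE 0.71, limma adjusted p = 0.200) and CFL1 0.55 (SE 0.43, limma adjusted p = 0.287), so that all 4 actin-binding genes lay between percentile 94.2 and 97.4 of all genes. ACTG1 was called lower at −1.71 (SE 0.64, limma adjusted p = 0.0317), and ACTB had −1.33 (SE 1.52, limma adjusted p = 0.465), although its 60 min libraries lay below all 7.5 min libraries in primary TPM. The SE of ACTB includes limma's moderation toward a trend over the mean ratio, where its own residual SD was 0.37 and that of the trend 3.98 on the log2 scale. With no such trend, an alternative chosen after seeing the data, ACTB passed as lower (limma adjusted p = 0.00349) and the calls on the other 5 genes stayed as they were. Without 60 min replicate 1 the adjusted p of MYL6 was 0.0528, and without 7.5 min replicate 1 TMSB10 passed at 1.83 (limma adjusted p = 0.0308). TMSB10 also passed with a replicate block in the fit (closing section). The ACTG1 call was lost without 7.5 min replicate 1 (limma adjusted p = 0.111) or 3 (0.0640), without any 1 of the 60 min libraries (0.0595, 0.0696 and 0.0891 without replicates 1, 2 and 3), and with only the 6 libraries compared in the fit (0.0745).

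Single introns gave a second view of splicing. For each intron the authors deposited the excised share, the part of reads at its ends that are spliced, as a mean over the replicates, for introns with more than 5 reads in all 3 replicates; without the replicates no error or test can be given. The table holds 17 introns of these genes (ACTB 5, CFL1 3, PFN1 2, MYL6 6, TMSB10 1, ACTG1 0) among 21782 introns of 4163 genes. Over all introns the median excised share over the 5 labelling times, shortest first, was 54.2%, 57.9%, 69.6%, 80.6% and 84.4%. The 5 ACTB introns lay between 74.5% and 89.8% at 7.5 min, between 80.4% and 90.7% at 30 min and between 91.9% and 94.2% at 60 min, and each was higher at 30 and at 60 min than at 7.5 min. At 15 min 4 of the 5 were lower than at 7.5 min, as were 38.8% of all introns. The first ACTB intron, 860 bases with 76.9% GC at chr7:5569295-5570154 (hg19, counted from 1), was the most fully excised of the 5 both at 60 min (94.2%) and at 7.5 min (89.8%).

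The introns of the actin-binding genes were also mostly lower at 15 than at 7.5 min, in 11 of 12, and unlike those of ACTB they had not passed the 7.5 min value by 30 min. At 7.5 min the 12 were excised to 73.4% to 92.1%, all 12 were lower at 30 min than at 7.5 min, and 10 of 12 were still lower at 60 min. Over all introns, 18.6% were lower at 30 min and 5.44% at 60 min than at 7.5 min. The single TMSB10 intron in the table (chr2:85132843-85133126) was excised to 92.1%, 81.2%, 77.2%, 87.6% and 90.9% over those times. The PFN1 intron at chr17:4850116-4851557 went deeper, with 83.9%, 61.4%, 44.3%, 47.3% and 55.9%. Among the 3 CFL1 introns the lowest at 30 min had 65.8%, and at 60 min they lay between 80.0% and 87.3%.

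**Figure D5:**
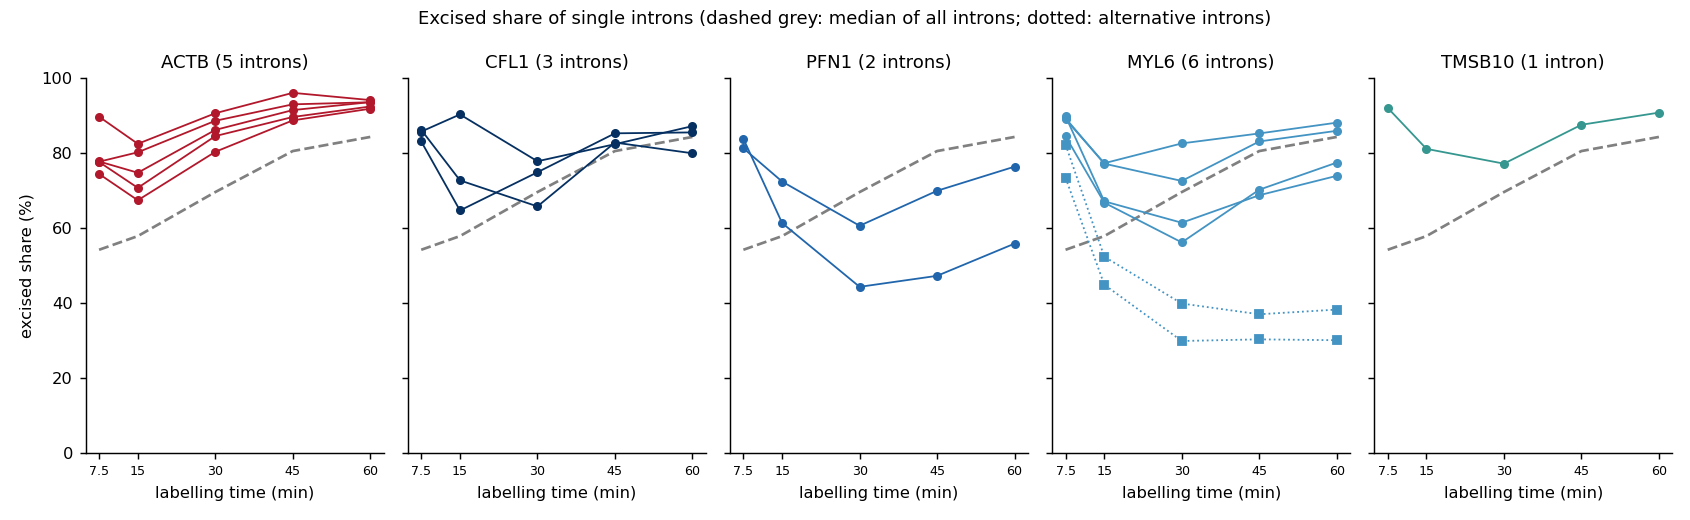
Excised share of each intron in percent (vertical axis, 0 to 100) against labelling time in minutes, 1 panel per gene; each line is 1 intron, dotted lines are the 2 alternative introns of MYL6 and the dashed grey line is the median of all introns. ACTB introns stay above the median, all 12 introns of the 4 other genes are lower at 30 than at 7.5 min, and the alternative MYL6 introns end at 30.1% and 38.2%.

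The lowest values belonged to 2 alternative introns of MYL6 that start at the same 5′ splice site. One, of 305 bases (chr12:56554105-56554409), leads to a cassette exon and was excised to 73.4%, 44.9%, 29.8%, 30.3% and 30.1% over the 5 times. The other, of 1066 bases (chr12:56554105-56555170), skips that exon and was excised to 82.3%, 52.4%, 39.9%, 37.0% and 38.2%. At 60 min they stood at percentiles 0.376 and 0.955 of all introns. A transcript spliced at their common 5′ site by 1 of them is not spliced by the other. Whether this lowers their excised shares beside those of other introns was not tested. The authors' spliced-in index, which per the file headers gives how often an exon is spliced, was 40.4% at 60 min and 40.2% at 7.5 min for the junction into the exon, and 52.3% at 60 min and 43.4% at 7.5 min for the skipping one. In GENCODE release 29 an exon of 45 bases with the same flanking intron length of 305 bases is in 4 MYL6 transcripts at chr12:56160626-56160670 (GRCh38, plus strand). Its 29 coding bases, chr12:56160626-56160654, encode the end of the form that includes it, and the stop codon is in capitals.
MYL6 cassette exon, coding part: cgtttgtgaggcatatcctgtcggggTGA
The authors sorted introns by the time course of excision into fast, medium and slow. All 5 ACTB introns and 9 of the 12 others were fast, and 3 were slow, the 2 alternative MYL6 introns and the PFN1 intron named above; over all introns 39.4% were fast, 43.0% medium and 17.7% slow.

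The authors' table of rate scores for 15120 genes, estimated with INSPEcT from the labelled and total libraries, was read by percentile. All 6 genes were in cluster 1 of the authors' 7 clusters, which held 13.7% of genes. Synthesis scores were high throughout, at percentile 99.6 for ACTB, 99.4 for ACTG1, 98.2 for PFN1, 96.9 for CFL1, 96.2 for MYL6 and 91.6 for TMSB10. Degradation scores, on a centred log10 scale, were low throughout. From highest to lowest they had the same order as synthesis, except that CFL1 and PFN1 changed places. They were −0.60 for ACTB (percentile 5.96), −0.73 for ACTG1 (2.73), −0.81 for CFL1 (1.48), −0.83 for PFN1 (1.36), −0.95 for MYL6 (0.470) and −1.08 for TMSB10 (0.139). ACTB and ACTG1 thus had the highest synthesis and, among these 6, the least low degradation scores, and TMSB10 the lowest of both. Processing scores placed ACTB, ACTG1 and CFL1 at percentile 99.9 or above, MYL6 at 90.6, PFN1 at 77.0 and TMSB10 at 15.6. These scores come from the same libraries as the TPM and are not independent of them. Excised shares of single introns did not all follow the order of the processing scores. At the shortest labelling time they were 92.1% in TMSB10, 83.2% to 86.3% in CFL1 and 74.5% to 89.8% in ACTB. At the longest they were 90.9%, 80.0% to 87.3% and 91.9% to 94.2% in the same order. The locus has 1051 bases in TMSB10, 39005 in CFL1 and 36638 in ACTB. The part of locus length in the processing scores was not tested.

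Other readouts in the authors' deposited table used other libraries. The translation score from ribosome profiling put all 6 genes at percentile 97.2 or above. In the authors' deposited table the cytoplasmic to nuclear log2 ratio lay at percentile 78.6 for ACTB and 81.7 for ACTG1, and between 89.6 and 94.3 for the 4 actin-binding genes. The polysomal to cytosolic log2 ratio in the authors' deposited table separated the 2 kinds more widely: percentile 55.2 for ACTB and 45.5 for ACTG1, against 94.0 for CFL1, 93.4 for PFN1, 98.3 for MYL6 and 98.3 for TMSB10. No replicates of these values were used, so no error is given. For the other genes of the actin cytoskeleton list (below), 50 of 54 had a degradation score under the median of all genes, with a list median of −0.48 against −0.04 over all 15120, and 42 of 54 had a synthesis score above it.

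Copies per cell, which the authors derived for each total library with spike-in RNA, differed between methods for each of the 6 genes, and were highest in the RNase H library and lowest in the poly(A) library. ACTB had 82.9 (poly(A)), 432 (RNase H) and 137 (Ribo-Zero) copies of mature mRNA per cell, and ACTG1 109, 323 and 169.5 copies in the same order. TMSB10 had 39.9, 118 and 86.7 copies, MYL6 48.7, 128 and 95.2, PFN1 65.2, 205 and 82.6, and CFL1 41.0, 133 and 60.6. ACTG1 was the most abundant of the 6 in the poly(A) and Ribo-Zero libraries and ACTB in the RNase H library. The ACTG1 copies are those of its own entry, with nothing added for the entry of identical TPM. The 6 together came to 387, 1339 and 631 copies. The ratio of RNase H to poly(A) copies was 5.22 for ACTB and 2.63 to 3.24 for the others, beside a median of 2.90 over 10911 genes. The ratio of Ribo-Zero to poly(A) copies was 2.17 for TMSB10, 1.95 for MYL6, 1.65 for ACTB, 1.55 for ACTG1, 1.48 for CFL1 and 1.27 for PFN1. Its median over the same genes was 1.26. Copies per TPM were not constant within a library: in the poly(A) library they were 0.0725 to 0.0784 for these 6 genes and 0.0986 for the median gene.

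The genes whose mature level followed each of the 6 most closely over the 15 labelled libraries were found by Pearson r of log2(TPM + 1) among 2601 genes with a mean of at least 50 TPM. For TMSB10 they included UBL5 (r = 0.966) and RPS10 (0.964), and for MYL6 they were RPS18 (0.970), RPS4X (0.962) and RPS23 (0.959); RPS genes encode proteins of the small ribosomal subunit. CFL1 was most like GPX1 (0.945), RPS2 (0.940) and METTL26 (0.932), and PFN1 most like CYB5R3 (0.953), POLR2E (0.924) and BANF1 (0.920). ACTB was most like SIVA1 (0.929), MTATP6P1 (0.902) and FOXP1 (0.879), and ACTG1 most like FBRS (0.916), TMEM259 (0.899) and STRN4 (0.868). These r describe libraries that share labelling times and preparation, and carry no p.

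A list of 64 other actin cytoskeleton genes sets the 6 in context. Of 58 tested at 60 against 7.5 min of labelling, 7 were called higher and 1 lower in mature RNA, where 15.8% and 4.21% of all genes were, with a median log2 change of 0.09 against 0.24 over all genes. The largest rises were SRF itself, with 63.2 ± 18.7 TPM in the 60 min libraries and 18.1 ± 4.90 TPM in the 7.5 min libraries (SD over 3 libraries; 1.74 on the log2 scale, limma adjusted p = 0.00130), TWF1, which encodes the monomer-binding twinfilin 1 (1.71, limma adjusted p = 0.00505), and SSH1, a phosphatase that activates cofilin (1.70, limma adjusted p = 4.76e-04). The 1 that fell was ARPC2, a subunit of the filament-branching Arp2/3 complex, with 58.8 ± 8.33 TPM in the 60 min libraries and 90.4 ± 5.15 TPM in the 7.5 min libraries (SD over 3 libraries; −0.62 on the log2 scale, limma adjusted p = 0.0389). Of 9 Arp2/3 genes tested it alone was called in this fit, whereas median-ratio scaling called 4 of the 9 lower (ARPC1A, ARPC1B, ARPC2 and ARPC3), and ARPC1B was also called lower with quantile normalization and with TPM over mature transcripts alone. Over the list median-ratio scaling gave 4 higher and 8 lower, and without 7.5 min replicate 3 or any 1 of the 60 min libraries ARPC2 was not called.

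In total against 60 min RNA 13 of 58 list genes were called higher and 9 lower, where 5.24% and 40.1% of all genes were, with a median of 0.07 against −0.84 over all genes. ACTA2, smooth muscle α-actin, had 19.2 ± 7.33 TPM in total RNA and 2.36 ± 0.716 TPM at 60 min (SD over 3 libraries; 2.54 on the log2 scale, limma adjusted p = 3.39e-04). TMSB4X, the close relative of TMSB10, rose by 2.23 and ARPC3 by 1.60 on the log2 scale. SSH1 (−2.35), ARPC5L (−1.54) and MYH14, a non-muscle myosin heavy chain (−1.37), were lowest. Among the myosin genes, the 3 light chains tested, MYL6B (1.48), MYL12A (1.33) and MYL12B (1.51), were called higher in total RNA, also under the 3 scalings. The 3 heavy chains MYH9 (−1.35), MYH10 (−0.96) and MYH14 (−1.37) were called lower, but none of them under median-ratio scaling, where they had −0.36, 0.03 and −0.65. Quantile normalization called MYH9 lower (limma adjusted p = 0.0249), but not MYH10 (0.292) or MYH14 (0.351). With TPM over mature transcripts alone all 3 were called lower. Median-ratio scaling gave 36 higher and 1 lower over the list and quantile normalization 26 and 2, and the higher calls went to 8 without replicate 1 or 3 of 60 min or the RNase H library and to 7 without the poly(A) library.

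For primary RNA 46 of 55 list genes were called lower at 60 min, as were 75% of all genes, with a median of −1.53 against −1.15 over all genes, and the other 9 were not called. ENAH, an actin polymerase (−2.57), the formin DIAPH3 (−2.42) and the coronin CORO1C (−2.35) fell most. The ratio of primary to mature TPM was called lower in 43 of 58, as it was in 62.8% of all genes, with a median of −1.84 against −1.81 over all genes and the largest falls in SSH1 (−3.51), TWF1 (−3.37) and ACTR3, the Arp3 subunit (−3.35). MYL6 and PFN1, whose ratio rose, had the opposite sign to each called gene of the list.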

How the data were processed

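RNA of HEK293 cells was measured in 15 labelled and 3 total libraries. The authors deposited TPM for mature and primary transcripts, estimated with RSEM 1.2.11, Bowtie 1.0.1 and hg19 per the submitters' processing notes; per the file headers the annotation was GENCODE release 19 with 1 added isoform per gene that spans the locus. TPM carry no depth, so precision rests on 3 libraries a group. Excised shares and spliced-in indices are fractions in the authors' intron table (bam2ssj, means over replicates, per the file headers), printed here as percent. The authors' rate table holds scores; its synthesis and degradation scores were checked to lie on a log10 scale (SD of the score minus log10 of the linear rate 0.0482 over 4163 genes), and the processing score was used for order only. Its balance between fractions is a log2 ratio per the file headers. The authors deposited intron lengths as log10 values, as read from the coordinates. Copies per cell are as the authors deposited them.

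Symbols came from GENCODE release 29 (82.6% of entries), promoters from RefSeq, and positions were not moved between builds. Mature and primary TPM were compared on log2(TPM + 1), which understates changes of low genes, with limma 3.58.1 in R 4.3.3 (empirical Bayes with a trend, Benjamini-Hochberg threshold 0.05, mean of at least 1 TPM), over the 15 labelled libraries or, for total RNA, all 18. In simulated data with 16739 genes, the 60 against 7.5 min test recovered 71% of changes of 2 and 16% of changes of 1 on the log2 scale. In the total comparison, with 16580 genes, it recovered 86% and 17%. Each size of change was put into 100 genes, drawn from those at higher levels. Many more genes were called in the data, and the adjustment depends on how many change. These shares are therefore not the power of the tests here. The letters A, B and C in the labels were taken as replicates 1, 2 and 3. The main fits did not pair libraries by letter (see the closing section). The 6 genes, the list of 64 (58 reached the filter; ACTC1, ACTG2, ACTBL2, TMSB15A and MYL9 did not, and MKL1 was not found by symbol), the markers and the tests were chosen with earlier results of these data known. Named besides the 6 genes are the 3 called list genes with the largest change in each direction, the 3 genes most like each of the 6 (1 of those for TMSB10 is not reported here), and pseudogenes with a mean of at least 1 TPM; other names, such as the myosin genes, were chosen after their values were seen. Alternatives changed the pseudocount, scaling, filter, libraries in the fit and the replicate block.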

Additional observations from a re-analysis of the deposited data

How the results depend on the processing

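Of the calls on the 6 genes, those of MYL6 and TMSB10 over labelling time and of MYL6, TMSB10, PFN1 and CFL1 in total RNA held under each alternative run; the report names where the others did not. TPM are shares, so scaling moved many counts. Over labelling time, median-ratio scaling gave 1297 genes higher and 1307 lower (list 4 and 8) and an ACTG1 change of −0.13. Quantile normalization gave 1510 and 1176 (list 4 and 5) and an ACTB change of 0.061. TPM over mature transcripts alone gave 1588 higher, 5 list genes lower and an ACTG1 change of −0.020. The list genes lower were 2 with a mean of at least 5 TPM, 3 with only the 6 libraries compared, 3 without 45 min replicate 2 (an alternative chosen after seeing the data, as were summing the entry identical to ACTG1, which changed no call, and the ratio test with no trend, which called ACTB) and 0 to 1 without 1 of the libraries compared; over all genes those lower were then 408 to 558, against 705. In total RNA, median-ratio scaling gave 2857 higher and 2516 lower (list 36 and 1), and quantile normalization 2276 and 2511 (list 26 and 2), with −0.31 for ACTB and −0.11 for ACTG1. Without 1 library there were 560 to 910 genes higher, and 7 to 18 list genes higher and 4 to 13 lower. For primary RNA, median-ratio scaling gave 2938 higher and 3408 lower and turned CFL1, MYL6 and TMSB10 to 0.70, 0.95 and 0.43; quantile normalization gave 2667 and 3709 and turned them to 0.61, 0.82 and 0.25. Without 1 library 56 to 117 primary transcripts were higher, and PFN1 ranged from −0.22 to 0.22. With only the 6 libraries compared, the ratio was higher in 234 genes. The actin minus actin-binding change at 60 against 7.5 min was 1.62 without ACTB, 1.11 without ACTG1, 1.53 without CFL1, 1.54 without PFN1 and 1.14 without TMSB10; in total against 60 min RNA it was −1.65 without CFL1 and −1.17 without TMSB10. Except where fewer libraries or genes entered, the cause was not tested.

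No label says that a letter marks a shared culture, and the main fits did not pair libraries by letter. Deviations from the group means of same-lettered 60 and 7.5 min libraries correlated across genes at 0.273, 0.0835 and 0.0893. Those of different letters correlated at −0.199 to 0.128. Of the same-letter values, only that of replicate 1 (0.273) exceeded every value of different letters. Libraries of the same letter may share part of their spread, which the main fits leave in the error, but these correlations do not show it for each letter. With the replicate block 1090 mature genes (4 of the list) were lower and 158 primary transcripts higher, and PFN1 passed (limma adjusted p = 0.00985), as did TMSB10 for primary RNA (7.84e-04) and for the ratio (0.0151). No paired analysis was possible for total RNA because each of its replicates is another method.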
